A study of Mus musculus with 8 samples.

Results

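The mitochondrial ribosomal protein genes are the protein-coding genes of the mm10 mouse genome named Mrpl or Mrps and a number. They were picked by symbol alone: 78 of 21900 protein-coding genes carried such a name. Of these, 49 are Mrpl genes, named for the large ribosomal subunit, and 29 are Mrps genes, named for the small subunit. Below, large and small subunit genes means Mrpl and Mrps genes, since the symbol alone set the subunit. Whether each protein lies in that subunit was not checked. The study used ChIP-seq, the sequencing of DNA that an antibody pulls down with a chromatin protein, to map the histone variant H2A.Z in testis cells of mice at postnatal day 14. Testes of control mice were compared with testes of the genotype labelled Znhit1-CKO, which the protocol calls Znhit1-sKO, with 2 H2A.Z immunoprecipitates and 2 inputs of each genotype, 8 libraries in all. The promoter or Cre line that drives the deletion is not given in the sources used here, and neither are the alleles the controls carry. Of each genotype 1 peak list was read, and another list holds the regions the authors called differential between genotypes.

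Mitochondria make a small set of respiratory chain subunits on their own ribosomes, whose RNA is encoded in mitochondrial DNA. All proteins of these mitochondrial ribosomes are encoded in the nucleus, made in the cytoplasm and imported, so the large and small subunits depend on many scattered nuclear genes that most tissues transcribe. H2A.Z is a variant of histone H2A that lies in nucleosomes around the promoters of active and poised genes, on both sides of the start of transcription. ZNHIT1 is a subunit of SRCAP, the remodelling complex that exchanges H2A for H2A.Z.

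H2A.Z peaks lay at nearly every mitochondrial ribosomal protein gene in both genotypes. A control peak was found within 1 kb of a gene end at 76 of the 78 genes (97.4%, 95% exact Clopper-Pearson interval 91.0% to 99.7%), against 67.6% of all protein-coding genes. A Znhit1-CKO peak was found there at 75 genes (96.2%, interval 89.2% to 99.2%), against 60.4% of all. Of the 76 genes with a control peak, 1 had no Znhit1-CKO peak at either end (1.32%, interval 0.0333% to 7.11%), against 11.5% of all genes with a control peak. The authors listed a differential region within 1 kb of a gene end at 51 of the 76 (67.1%, interval 55.4% to 77.5%), and the same held for 62.8% of all genes with a control peak. The genes thus stood above the background in the share with a peak and below it in the share without a Znhit1-CKO peak, while their share with a differential region was near the background. The intervals cover the counting of genes only. Each genotype has a single list with no replicate values, so no difference between genotypes could be tested here against the spread between animals, and the differential regions carry no sign. Testis cells were analysed in bulk, so fewer cells of a type and less H2A.Z per cell cannot be told apart. Across the genome the control list held 48752 peaks with a median width of 742 bp, the Znhit1-CKO list 31156 with a median of 667 bp, and the differential list 24367 regions, 24362 of them 400 bp wide. No file gives the reads behind a peak.

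The promoter table drawn from RefSeq (GRCm38.p6, the assembly with mm10 coordinates) gave a start of transcription and a strand for 69 of the 78 genes. Mrpl13, Mrpl15, Mrpl19, Mrpl38, Mrpl4, Mrpl54, Mrps28, Mrps34 and Mrps35 had no entry. Sequence upstream of the listed start is shown for 6 genes whose peaks are described below, because they are the exceptions, the divided peaks and a peak that was wider in Znhit1-CKO, followed by the stretch between the starts of a pair of divergent members. Each of the 6 runs 150 bases up to the base before the start, 5′ to 3′ on the gene's own strand. Capitals mark a match to the binding motif of NRF1, the nuclear respiratory factor known at genes for mitochondrial proteins, or of the ETS family (CCGGAAG), on either strand. The first pair, Mrps23 (chr11:88204238-88204387, plus strand) and Mrpl22 (chr11:58171514-58171663, plus strand), have their listed start well inside the annotated gene.
Mrps23: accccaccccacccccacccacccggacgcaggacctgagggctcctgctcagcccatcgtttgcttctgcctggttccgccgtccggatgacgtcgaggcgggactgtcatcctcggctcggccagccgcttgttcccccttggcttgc
Mrpl22: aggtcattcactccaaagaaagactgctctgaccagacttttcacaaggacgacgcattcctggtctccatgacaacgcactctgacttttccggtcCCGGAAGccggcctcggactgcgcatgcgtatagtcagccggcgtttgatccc
The peaks over the starts of Mrpl34 (chr8:71464776-71464925, plus strand), Mrpl39 (chr16:84735245-84735394, minus strand) and Mrpl32 (chr13:14613038-14613187, minus strand) were each overlapped by 2 separate peaks in Znhit1-CKO, with the gap in or beside the stretch shown.
Mrpl34: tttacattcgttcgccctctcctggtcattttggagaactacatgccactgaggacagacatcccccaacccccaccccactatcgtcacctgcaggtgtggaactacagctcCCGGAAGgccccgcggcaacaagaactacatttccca
Mrpl39: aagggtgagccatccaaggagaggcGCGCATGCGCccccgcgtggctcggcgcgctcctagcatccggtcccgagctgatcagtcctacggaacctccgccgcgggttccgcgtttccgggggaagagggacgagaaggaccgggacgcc
Mrpl32: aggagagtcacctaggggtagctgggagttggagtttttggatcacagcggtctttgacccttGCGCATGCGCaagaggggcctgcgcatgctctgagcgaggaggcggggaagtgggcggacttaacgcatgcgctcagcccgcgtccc
Mrps21 (chr3:95871515-95871664, minus strand) had a narrow control peak that was wider in Znhit1-CKO.
Mrps21: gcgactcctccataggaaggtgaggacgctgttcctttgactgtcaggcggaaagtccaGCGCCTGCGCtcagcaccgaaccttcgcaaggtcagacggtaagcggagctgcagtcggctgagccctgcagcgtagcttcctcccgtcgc
Mrpl46 and Mrps11 are transcribed away from each other from starts 42 bp apart, and the bases between the starts (chr7:78783090-78783130) are given on the strand of Mrps11.
Mrps11: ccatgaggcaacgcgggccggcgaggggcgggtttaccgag

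Seen from the listed start, peaks again lay at nearly every gene. A control peak covered the start at 68 of 69 genes (98.6%, interval 92.2% to 100%), against 61.8% of all genes with a listed start. Of these 68, a Znhit1-CKO peak also covered the start at 65 (95.6%, interval 87.6% to 99.1%), against 83.3% of all genes whose start a control peak covered. Within 1 kb of the start, all 69 genes had a peak in each list. A differential region lay within 1 kb of the start at 46 of the 68 (67.6%, interval 55.2% to 78.5%), against 65.3% of all such genes. At 33 of the 68 the region covered the start itself (48.5%, interval 36.2% to 61.0%), against 39.9% of all such genes. Mrpl45, a large subunit protein without a bacterial counterpart that holds the ribosome at the inner membrane, was the gene with no peak over its start. Its start lay between a control peak of 793 bp that ended 118 bp upstream and another of 579 bp that began 60 bp downstream, and the Znhit1-CKO list had the same arrangement with peaks of 356 bp and 545 bp.

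**Figure D1:**
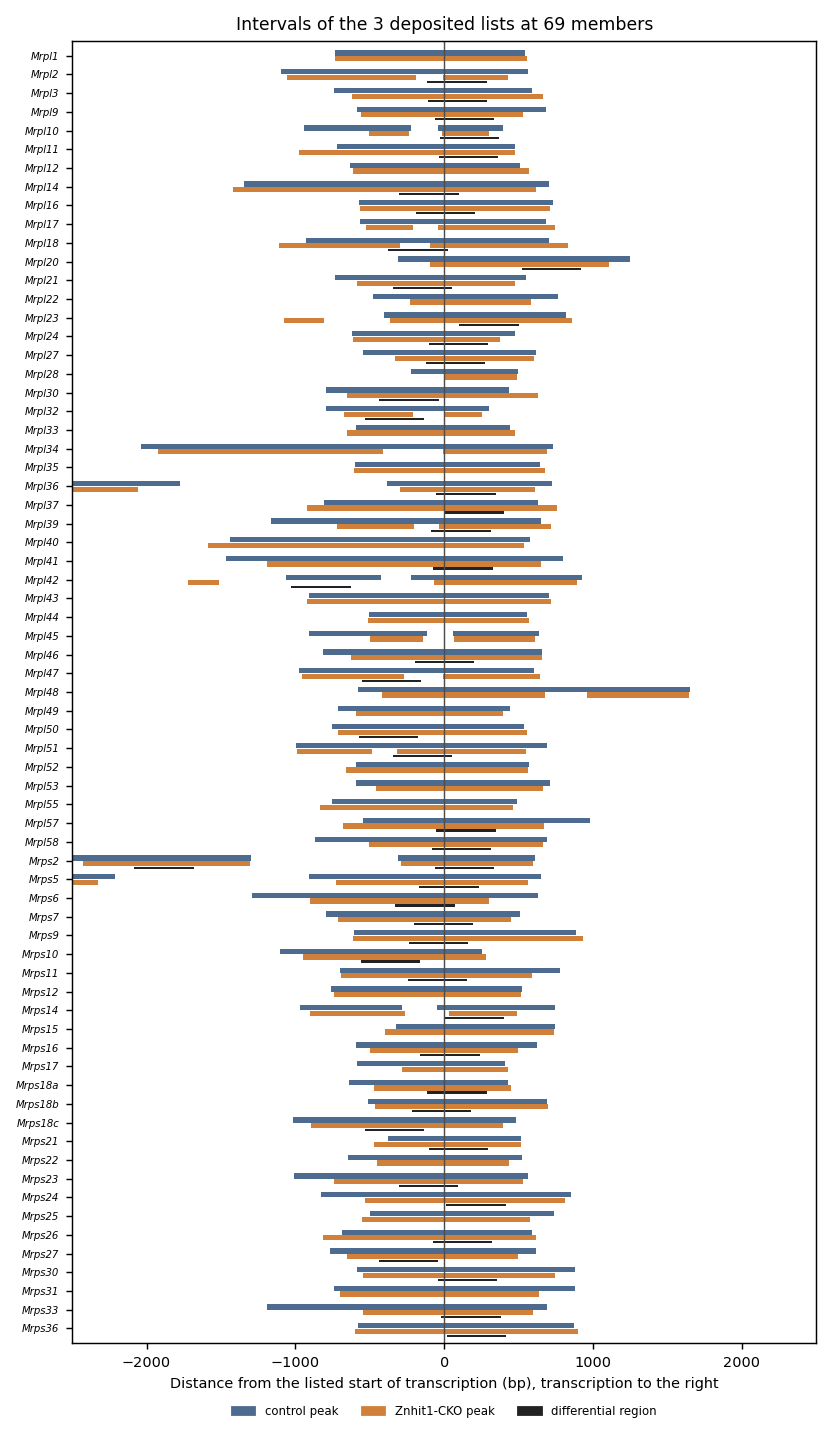
Every interval of the 3 deposited lists within 2500 bp of the listed start of transcription at 69 mitochondrial ribosomal protein genes, 1 gene per row, with distance in bp and transcription running to the right (blue, control peak; orange, Znhit1-CKO peak; black, differential region). Control peaks cover 68 of the 69 starts and Znhit1-CKO peaks 65, and several orange intervals are interrupted just upstream of the start.

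At 3 genes a control peak covered the start and no Znhit1-CKO peak did. Mrpl28, a large subunit protein with a bacterial counterpart, had a control peak of 721 bp from 223 bp upstream to 497 bp downstream of its start, and a Znhit1-CKO peak of 488 bp that began 1 bp downstream. Mrps14, a small subunit protein with a bacterial counterpart, had a control peak of 791 bp that reached 46 bp upstream, and a Znhit1-CKO peak of 459 bp that began 31 bp downstream. At Mrpl32, whose protein is matured by a protease of the inner membrane, the control peak of 1097 bp was overlapped by a Znhit1-CKO peak of 461 bp upstream and one of 252 bp downstream, with 213 bp between them that held the start. In each of the 3 both lists had a peak over bases downstream of the start, and the bases just upstream were covered in control alone. The downstream edge lay nearer the start in Znhit1-CKO. It was at 489 bp against 744 bp for Mrps14, 252 bp against 303 bp for Mrpl32 and 488 bp against 497 bp for Mrpl28.

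The 3 genes that fell outside the pattern at gene ends each had peaks in both lists inside the annotated gene. Mrps23, a small subunit protein specific to mitochondria (chr11:88194106-88211507), was the gene that the rule counted as lost. The control peak at its annotated left end was 1421 bp wide (chr11:88193440-88194860), lay within 1 kb of an end of Cuedc1 as well, contained a differential region and had no Znhit1-CKO counterpart. The listed start of Mrps23 lies 10282 bp inside the gene, and there a control peak of 1572 bp (chr11:88203378-88204949) was paired with a Znhit1-CKO peak of 1270 bp, a log2 width ratio of -0.31, with a differential region over it. Mrpl22, a protein near the exit of the tunnel for the nascent chain (chr11:58170043-58179580), had no peak at a gene end in either list. Its listed start lies 1621 bp inside, under a control peak of 1243 bp and a Znhit1-CKO peak of 813 bp (log2 ratio -0.61) with no differential region. Mrpl4, another large subunit protein with a bacterial counterpart (chr9:21001252-21008839), had a control peak of 1357 bp that began 1007 bp inside its left end, a Znhit1-CKO peak of 1042 bp within it and 1 differential region. Counted within 1 kb of the listed start, 0 of 69 genes lost their peak (interval up to 5.21%), against 10.1% of all genes with a control peak there.

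The peaks that had a counterpart were mostly narrower in Znhit1-CKO, by a small amount. For each gene the widest control peak at a gene end was taken, and it was called paired where it and 1 Znhit1-CKO peak overlapped each other and no other peak. This gave 67 paired genes with 66 distinct control peaks, since Mrpl46 and Mrps11 share 1, besides 8 genes whose control peak was overlapped by 2 Znhit1-CKO peaks, and Mrps23. The median width of the paired peaks was 1281 bp in control and 1204 bp in Znhit1-CKO. The Znhit1-CKO peak was narrower at 47 of the 67 (70.1%, interval 57.7% to 80.7%), against 83.1% of all paired genes, and wider at the other 20. It had at most 75% of the control width at 10 (14.9%, interval 7.40% to 25.7%), against 29.7% of all. The median log2 ratio of Znhit1-CKO to control width was -0.18 (95% interval of the median -0.22 to -0.05), with quartiles of -0.29 and 0.02 and a range of -1.40 to 0.34, and the median over all paired genes was -0.22. Both shares were thus lower than the background, while the medians differed little.

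**Figure D2:**
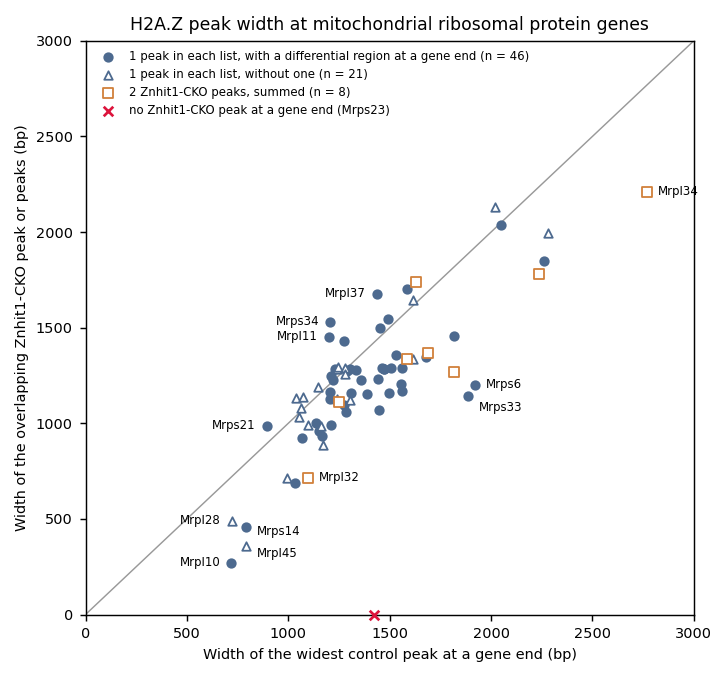
Width of the widest control H2A.Z peak at a gene end (bp) against the width of the overlapping Znhit1-CKO peak, or the sum where 2 overlap it (bp), for the 76 mitochondrial ribosomal protein genes with a control peak, with the line of equal widths. Most points lie close under the line, Mrpl10, Mrpl45 and Mrps14 are among the narrowest and lie far under it, and Mrps23 has no Znhit1-CKO peak at a gene end.

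The 5 genes with the lowest ratios came from both subunits. At Mrpl10, which helps form the stalk where translation factors bind, a control peak of 718 bp faced one of 272 bp (log2 ratio -1.40). This peak lay upstream of the start, and the control peak over the Mrpl10 start had a log2 ratio of -0.48. At Mrpl45 the widths were 793 bp and 356 bp (-1.16), and at Mrps14 791 bp and 459 bp (-0.79). Mrps33, specific to mitochondria, went from 1885 bp in control to 1145 bp (-0.72), and Mrps6, which has a bacterial counterpart, from 1922 bp to 1201 bp (-0.68). So 3 of the 5 had among the narrowest control peaks of the family and the other two among its wide ones.

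The 5 genes with the highest ratios had wider peaks in Znhit1-CKO than in control. They were Mrps34, a mitochondria-specific small subunit protein (1206 bp in control, 1531 bp in Znhit1-CKO, log2 ratio 0.34), and Mrpl11, a protein of the stalk base (1200 bp and 1452 bp, 0.28). Mrpl37 followed with 1437 bp and 1677 bp (0.22), Mrps26 with 1276 bp and 1432 bp (0.17), and Mrps21 with 894 bp and 984 bp (0.14). Each of these 5 also had a differential region at a gene end, so a listed region did not go with a narrower peak in every gene.

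By symbol, the large subunit genes (Mrpl) had 39 pairs with a median log2 ratio of -0.14, of which 25 were narrower in Znhit1-CKO. The small subunit genes (Mrps) had 28 pairs with a median of -0.20, of which 22 were narrower. A differential region was listed at 28 of 47 large subunit genes with a control peak (59.6%, interval 44.3% to 73.6%) and at 23 of 29 small subunit genes (79.3%, interval 60.3% to 92.0%), intervals that overlap. The 46 pairs with a differential region within 1 kb of a gene end had a median log2 ratio of -0.20, with 35 narrower. Over all such pairs the median was -0.24 and 84.5% were narrower. The 21 pairs without a region there had a median of -0.03 with 12 narrower, against -0.20 and 80.7% over all such pairs. These 21 were not alike: the median was 0.01 for 15 large subunit pairs (7 narrower) and -0.21 for 6 small subunit pairs (5 narrower). Single pairs without a region at a gene end reached -1.16 at Mrpl45 and -0.56 at Mrpl28. A region at a gene end need not lie in the paired peak, and at Mrpl10 it lay outside. Mrpl24 and Mrpl52, among the 21, had a region inside the paired peak but not within 1 kb of a gene end.

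Control peaks at these genes were somewhat narrower than at genes in general. The median was 1297 bp (quartiles 1170 and 1556 bp, range 718 to 2768 bp), against 1429 bp over all genes with a control peak. The widest were at Mrpl34 (2768 bp), Mrpl52 (2280 bp, 1993 bp in Znhit1-CKO), Mrpl41 (2263 bp, 1846 bp in Znhit1-CKO) and Mrpl48 (2234 bp). At Mrpl52 this peak lay at the downstream end. The peak over the Mrpl52 start was 1161 bp in control and 1224 bp in Znhit1-CKO. The narrowest were at Mrpl10 (718 bp), Mrpl28 (721 bp), Mrps14 (791 bp) and Mrpl45 (793 bp). Peak width went along with the calls across the genome, so genes were also read within quartiles of the control width of all genes. In the lowest quartile (205 to 1106 bp), 37.3% of all genes lost their end peak and 0 of the 14 mitochondrial ribosomal protein genes there did. In the other quartiles 5.04%, 2.11% and 1.76% of all genes did, against 1 of 31, 0 of 21 and 0 of 10 of the family. A differential region was listed at 6 of 14, 21 of 31, 18 of 21 and 6 of 10 of the family from the lowest quartile to the highest, against 50.7%, 64.2%, 68.8% and 67.6% of all genes. Narrower pairs made up 9 of 13, 19 of 29, 13 of 18 and 6 of 7 of the family, against 80.9%, 80.2%, 82.9% and 88.4% of all.

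At 8 genes, all of the large subunit, the control peak was overlapped by 2 Znhit1-CKO peaks (10.5% of 76, interval 4.66% to 19.7%), against 9.85% of all genes with a control peak. No Mrps gene showed this (0 of 29, interval up to 11.9%). Among the 5 mitochondrial ribosome subunits with other names, the control peak of Ptcd3 (1250 bp) was divided as well. In order of control width the 8 Mrpl genes were Mrpl34, Mrpl48, Mrpl39, Mrpl51, Mrpl18, Mrpl47, Mrpl17 and Mrpl32. The control peak of Mrpl34 reached from 2034 bp upstream to 733 bp downstream of the start, and its Znhit1-CKO peaks of 1510 bp and 699 bp left 401 bp uncovered, ending just before the start. At Mrpl39, a protein with a fold known from tRNA synthetases, a control peak of 1817 bp faced peaks of 516 bp and 752 bp that together had 69.8% of its width, with a gap of 169 bp. Mrpl51 (1691 bp in control) had peaks of 500 bp and 869 bp, Mrpl18 (1630 bp) of 816 bp and 925 bp, Mrpl47 (1585 bp) of 686 bp and 651 bp, and Mrpl17 (1251 bp) of 319 bp and 791 bp. Their gaps measured 168, 201, 260 and 161 bp. At Mrpl18 the 2 peaks together were 107% of the control width, so this peak was divided without becoming smaller.

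The gap was centred within 500 bp upstream of the start in 7 of these 8 genes (87.5%), and in 612 of 1134 (54.0%) of all genes with a listed start and such a division. For all genes it was centred within 500 bp downstream in 130 (11.5%) and lay elsewhere in 392. The divided peak need not lie at the start, so the 2 shares are not over peaks placed alike. The exception was Mrpl48, where the gap of 284 bp lay downstream of the first listed start. Mrpl2, a large subunit protein with a bacterial counterpart, had the same arrangement at its start although the rule's widest peak lay at its other end, a gene chosen after its values were seen. There the control peak of 1658 bp was interrupted upstream in Znhit1-CKO, whose peak over the start was 439 bp wide. Another listed start of Mrpl48 lay inside the gap of that gene, under a control peak and no Znhit1-CKO peak.

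Position by position, the lists differed most at the outer edges of the peaks and just upstream of the start. At 750 bp upstream, control peaks covered 31 genes and Znhit1-CKO peaks 17, and at 675 bp downstream the counts were 29 and 18. At 100 bp downstream of the start, 69 of 69 genes were covered in both lists. At 100 bp upstream, control peaks covered 66 genes and Znhit1-CKO peaks 56, while at 300 bp upstream, nearer the middle of the upstream part of the peak, they covered 67 and 61. Differential regions were densest close to the start, with 35 of 69 genes (50.7%) covered 50 bp downstream, where 43.4% of all genes with a control peak over the start were. Among all 10814 genes with a control peak over the start, 95.4% were covered in control and 76.7% in Znhit1-CKO at 100 bp upstream, and 99.4% and 88.2% at 100 bp downstream. In the family, Znhit1-CKO peaks covered 65 genes at the start itself, 68 at 50 bp downstream and all 69 from 75 to 250 bp downstream.

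**Figure D3:**
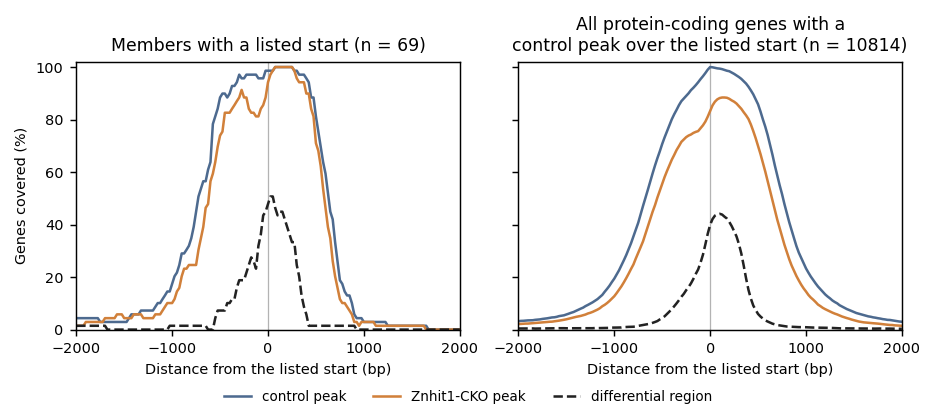
Share of genes covered (%) by a control peak, a Znhit1-CKO peak or a differential region at each distance from the listed start of transcription (bp), for 69 mitochondrial ribosomal protein genes and for the 10814 protein-coding genes with a control peak over the start. In the left panel both peak curves meet at 100% from 75 to 250 bp downstream of the start. They part upstream of the start and again further downstream, while in the right panel they stay apart throughout.

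The edges of the peaks over the start moved more on the upstream side. Only the Znhit1-CKO peak over the start was measured. Where 2 Znhit1-CKO peaks overlapped the control peak, the division therefore counted as an edge shift and as a narrower peak. At Mrpl34 the upstream shift was 2024 bp by this measure, although its other Znhit1-CKO peak reached 1921 bp upstream. Among the 65 genes with a start-covering peak in each list, the median control peak ran from 698 bp upstream to 629 bp downstream, and the median Znhit1-CKO peak from 584 bp upstream to 593 bp downstream. The upstream edge lay nearer the start in Znhit1-CKO at 48 of 65 (73.8%, interval 61.5% to 84.0%), against 76.4% of all genes. The downstream edge did so at 42 (64.6%, interval 51.8% to 76.1%), against 75.3% of all. The median inward shift was 90 bp upstream and 31 bp downstream, against 88 bp and 82 bp over all genes. Narrower over the start were 47 of 65 (72.3%, interval 59.8% to 82.7%), against 82.1% of all, with a median log2 ratio of -0.20. So the upstream shift was close to that of all genes, and the downstream shift was the smaller one.

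Differential regions sat close to the start in this family. The centre of the region nearest the start lay at a median of 82 bp downstream (46 genes), against 114 bp over 7062 genes. It was within 200 bp of the start at 33 of 46 (71.7%), further downstream at 5 (10.9%) and further upstream at 8 (17.4%). For all genes these shares were 61.2%, 25.3% and 13.5%. The region of Mrpl32 was among those upstream, running from 532 to 133 bp before the start. It lay over part of the upstream Znhit1-CKO peak and over the upstream part of the gap between the Znhit1-CKO peaks.

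Many of these genes share their peak with a neighbour, so a peak cannot always be assigned to 1 gene. At 41 genes (29 of the large and 12 of the small subunit) the widest end peak also lay within 1 kb of an end of another protein-coding gene, which is 41 of the 76 with a control peak, against 24.9% of all genes with one. The 8 widest shared peaks were those of Mrpl34 with Abhd8, Mrpl52 with Mmp14 (a membrane-bound matrix metalloproteinase), Mrpl41 with Pnpla7, Mrpl48 with Rab6a (a Golgi GTPase), Mrpl14 with Tmem63b, Mrpl40 with Hira (a histone chaperone), Mrps6 with Slc5a3 (an inositol transporter) and Mrpl2 with Cul7. Some neighbours, named after their values were seen, are themselves genes of mitochondrial function: Mrpl43 lies beside Twnk, the mitochondrial DNA helicase, Mrps12 beside Sars2, the mitochondrial seryl-tRNA synthetase, Mrpl47 beside Ndufb5 and Mrpl36 beside Ndufs6, both subunits of respiratory complex I, and Mrps27 beside Ptcd2, a mitochondrial RNA-binding protein. Mrpl46 and Mrps11, of the large and the small subunit, share a control peak of 1474 bp and a Znhit1-CKO peak of 1285 bp (log2 ratio -0.20).

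Another gene started within 1 kb upstream on the opposite strand at 24 of the 69 genes (34.8%, interval 23.7% to 47.2%), against 8.04% of all genes with a listed start and 12.4% of those whose start a control peak covered. In control, the median width of the end peak of these genes was 1474 bp. It was 1263 bp for 44 of the 45 genes without such a neighbour, those with a control peak at a gene end. Where each list had a peak over the start, the control peak reached further upstream beside such a neighbour. The median was 809 bp (23 genes) against 593 bp (42 genes). The width change was nearly the same, with median log2 ratios of -0.19 (20 pairs) and -0.18 (39 pairs). A differential region lay within 1 kb of the start at 20 of the 24 and at 26 of the 45. The share was 65.3% over all genes whose start a control peak covered, with or without such a neighbour. The same split was not counted over all genes, and a link between such a neighbour and a differential region was not tested.

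Motifs known from genes for mitochondrial proteins and from housekeeping genes were frequent in the promoter sequences. Windows of 300 bases, from 250 before to 50 after the start, were searched on both strands, and a match is only a stretch of letters. The NRF1 motif (GCGCA and GCGC separated by any 1 base) was found at 13 of 69 genes (18.8%), against 6.66% of all 17492 promoters and 10.4% of those under a control peak. The ETS motif CCGGAAG was found at 24 (34.8%), against 11.9% and 17.9%. AAGATGGCG, the motif of YY1, was found at 8 (11.6%), against 1.92% and 2.98%. At least 1 of these 3 motifs was present at 39 genes (56.5%), against 18.6% and 28.2%. Among the 68 genes of the family with a control peak over the start, the NRF1 motif was found at 12 and the ETS motif at 24. The YY1 motif was found at 8 of the 68, and at least 1 of the 3 at 38. Of the general promoter elements, CCAAT occurred at 27 genes (39.1%, against 39.2% of all promoters and 38.5% of those under a control peak). GGGCGG, the motif of SP factors, occurred at 34 (49.3%), near the 46.3% of all promoters and below the 67.5% of those under a control peak. TATAAA occurred at 4 (5.80%), below the 13.3% of all promoters and near the 6.31% of those under a control peak. TGACGTCA, the cyclic AMP response element, occurred at 2 (2.90%, against 2.33% and 3.38%). The median number of CG dinucleotides per 300-base window was 21, the same as in all promoters under a control peak and above the 13 of all promoters. The 10 pairs with an NRF1 match had a median log2 width ratio of 0.04 and the 49 pairs with a promoter entry and no match had -0.20, values given as a description of few genes. The other 3 genes with an NRF1 match, Mrpl17, Mrpl32 and Mrpl39, are not among these pairs, because 2 Znhit1-CKO peaks overlapped their control peak. The summed widths were 88.7%, 65.0% and 69.8% of the control width.

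Other genes of mitochondrial translation, taken as lists, also had control peaks at nearly every gene and lost none of them. Over all genes with a control peak, 11.5% lost it and 62.8% had a differential region. Of all pairs, 83.1% were narrower, with a median log2 ratio of -0.22. The lists are short, and their differences from these shares were not tested. The 5 subunits of the mitochondrial ribosome with other names all had a control peak and none lost it. In this list 4 had a differential region and all 4 pairs were narrower (median log2 ratio -0.19), among them Aurkaip1 (-0.20), Chchd1 (-0.18) and the GTP-binding Dap3 (-0.18). Of 27 assembly and rRNA factors, 26 had a control peak, none lost it, 16 had a differential region and 19 of 25 pairs were narrower (median -0.15). The RNA helicases Ddx28 (0.16) and Dhx30 (0.00) and the GTPase Eral1 (-0.43) belong here. All 14 mitochondrial translation factors had a control peak and none lost it, 13 had a differential region, and 9 of 13 pairs were narrower (median -0.06). Among them the elongation factor Gfm1 had a log2 ratio of -0.87, Gfm2 had -0.14 and Guf1 had -0.04. Of 17 mitochondrial aminoacyl-tRNA synthetases, 16 had a control peak, none lost it, 12 had a differential region and 12 of 15 pairs were narrower (median -0.13), with Cars2 at -0.18. Aars2 had no control peak at a gene end but had one over its listed start.

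The genes for cytoplasmic ribosomal proteins, the family most alike in function, had a control peak at 75 of 76 genes, a differential region at 54 of the 75, and 47 of 63 pairs narrower (median log2 ratio -0.15, against -0.18 for the mitochondrial family). These are 72.0% with a region and 74.6% narrower, against 62.8% and 83.1% of all genes. Pairs at most 75% of their control width numbered 17 of 63 (27.0%), near the 29.7% of all pairs, against 10 of 67 (14.9%). Rplp0 (control peak 452 bp), Rpl18 (329 bp) and the X-linked Rpl10 (866 bp) lost their end peak, although Rpl18 had a peak in each list over its listed start. Of the first genes by symbol, Rpl10a had a log2 ratio of 0.05 and Rpl11 of -0.93. The difference between the families was not tested.

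**Figure D4:**
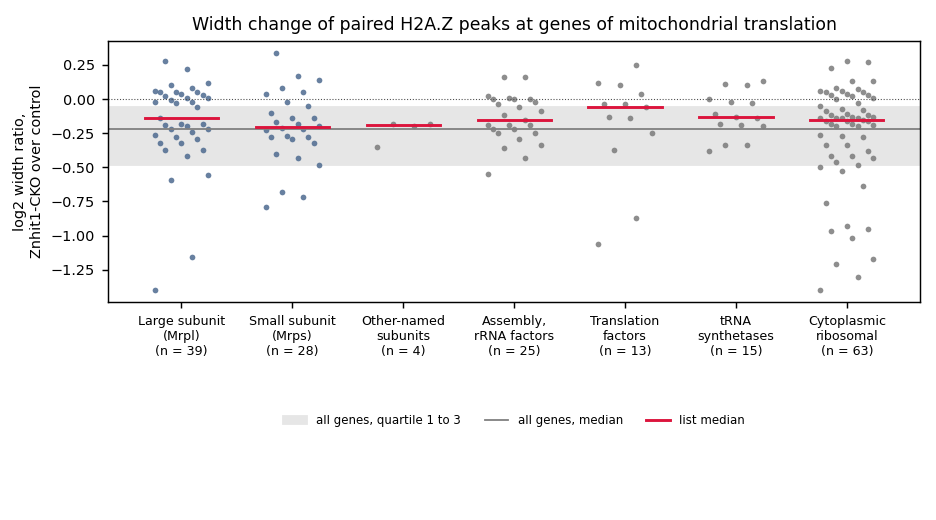
Log2 ratio of Znhit1-CKO to control width of each paired peak (points), by list, with the median of each list (red line) and the median and quartiles of all paired protein-coding genes (grey line and band). The medians lie between -0.06 and -0.20, above the all-gene median of -0.22.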

How the data were processed

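H2A.Z ChIP-seq was made from testis cells of control and Znhit1-CKO mice at postnatal day 14, with 2 replicates per genotype. The labels' protocol calls the replicates independent and biological. No file holds reads, so the depth of each library, and the precision it gives, is unknown here. MACS2 2.2.4, Picard 2.20.7, SAMtools 1.9, BWA 0.7.17 and cutadapt 2.5 are listed, per the submitters' processing notes, as is build mm10. The authors deposited 3 lists of intervals whose values are chromosome, start and end positions, with no height, fold, p-value or sign. How peaks and differential regions were thresholded, and whether replicates were pooled, is not given in the sources used here. The planned count test had no counts to use.

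Gene ends were taken from RefSeq (GRCm38.p6) and starts of transcription from its promoter table. A peak belonged to a gene if it overlapped the 1 kb on either side of a gene end by at least 1 bp, and the widest control peak stood for the gene. A peak counts as lost where no Znhit1-CKO peak lay at either end. Shares carry exact Clopper-Pearson 95% intervals, and medians an order-statistic interval. No set was tested, and the main counts are read beside the same count over all protein-coding genes. The members and gene lists were chosen with earlier results of these data known. Named genes were those without an end peak or that lost it, the 5 lowest and 5 highest width ratios, the 4 widest and 4 narrowest control peaks, up to 8 divided and 8 shared peaks, and in the other lists the lost genes or the first 3 by symbol, of which 1 gene is not reported here. Mtrfr, planned among the translation factors, is not analysed here. Alternatives were other windows, pairings, peak widths and gene subsets. The scripts were checked on simulated intervals and used matplotlib 3.10.9, scipy 1.17.1, pandas 2.3.3, numpy 2.4.6 and Python 3.11.15.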

Additional observations from a re-analysis of the deposited data

How the results depend on the processing

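Of 35 alternative settings of the 7 main values, 31 stayed within the spread allowed (1.5 times for a count), 4 moved further and 0 reversed. The number of genes that lost their end peak was 0 of 69 when counted at the listed start alone, and 4 of 76 when only peaks of at least 500 bp were counted, against 1 of 76. A differential region was listed at 22 of the 35 genes whose peak lay at the end of no other gene, a count over fewer genes than the 51 of 76. The median log2 width ratio was -0.03 for the 21 pairs without a differential region at a gene end. With windows of 500 and 2000 bp, control peaks were found at 74 and 78 genes and the median log2 ratio was -0.18 in both. The start-only counts of lost peaks, differential regions, ratios, narrower pairs and widths, and the count of narrower pairs from summed widths, were alternatives added once the data had been seen. No paired analysis was possible because each list holds 1 entry per genotype. For the same reason leaving out a replicate and a stricter peak threshold were not run, and no value here has a replicate error.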
